A study of Homo sapiens with 8 samples.

Results

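Lowering the RNA demethylase ALKBH5 in the human leukaemia cell line NOMO-1 was examined in 4 libraries of polyadenylated RNA, 2 from cells carrying a short hairpin RNA against ALKBH5 (shALKBH5, replicates 2 and 3) and 2 from cells carrying a non-targeting hairpin (shNS, replicates 1 and 3). These are 4 of the 8 libraries of the study; the other 4 hold the same comparison in MOLM-13, another acute myeloid leukaemia line, and serve here only as a contrast. All groups carry a lentiviral hairpin and passed puromycin selection, and both knockdown libraries carry the same single hairpin (number 1), so an effect of this hairpin on other targets cannot be told apart from that of ALKBH5. Separate cultures are not stated in the labels, and the p-values therefore reflect the variation among the libraries at hand, which can be technical. Of 26830 gene symbols in the deposited table, 13210 had at least 1 TPM in at least 2 of the 4 NOMO-1 libraries and were tested. TPM is a length-scaled share of the transcripts of a library. It keeps no depth, and the read depth behind each value is unknown.

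N6-methyladenosine (m6A) is a methyl mark placed on adenosines of RNA by a methyltransferase complex around METTL3 and METTL14. ALKBH5 and FTO remove it, and reader proteins of the YTH and IGF2BP families bind it and alter the decay, translation or processing of the marked RNA. NOMO-1 is a monocytic leukaemia line with a fusion of the MLL gene. Leukaemias of this kind depend on HOXA genes, MEIS1 and MYC, and as blocked monocyte precursors they keep parts of the granule, lysosome and macrophage programmes that their normal counterparts complete. A set of sensors watches over protein folding in the endoplasmic reticulum (ER): IRE1, which splices XBP1 mRNA, ATF6, which is cut to a transcription factor, and PERK, which slows translation and favours ATF4. Together they form the unfolded protein response.

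The libraries carried markers of a myelomonocytic line. CD33, a myeloid surface receptor, stood at 82.5 and 82.5 TPM in shNS and at 69.1 and 65.3 TPM in shALKBH5. SPI1, the transcription factor PU.1, was at 129.8 and 129 TPM in shNS and at 127 and 120.2 TPM in shALKBH5. The monocyte receptor CD14 was below 1 TPM in every library (0.30 and 0.44 TPM in shNS, 0.15 and 0.15 TPM in shALKBH5), and the granule peroxidase MPO likewise did not exceed 0.48 TPM. Summed over their marker lists, erythroid genes reached at most 0.70 TPM (0 of 12 tested) and epithelial genes at most 1.90 TPM (0 of 7 tested). The T and NK cell list (3 of 12 tested) summed to 384 and 375 TPM in shNS and 319 and 336 TPM in shALKBH5, nearly all of it from NKG7. The mast cell list (2 of 7 tested) summed to 798 to 827 TPM over the 4 libraries, nearly all of it from the tryptase gene TPSAB1. Megakaryocyte genes (2 of 8 tested) summed to 5.56 to 11.3 TPM and B cell genes (4 of 9 tested) to 19.96 to 26.66 TPM. Fibroblast and endothelial genes (1 of 8 tested) summed to 47.4 to 61.2 TPM, nearly all of it from the 1 tested gene (mean 52.2 TPM).

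ALKBH5 (chromosome 17, 18183078 to 18209954, GRCh38) stood at 70.4 and 71.8 TPM in the shNS libraries and at 15.1 and 14.2 TPM in the shALKBH5 libraries. Both knockdown libraries lay far below both controls, in the direction of the labels, and the mean was 4.86 times lower (log2 fold change -2.21, SE 0.06, limma adjusted p = 7.8e-05). FTO, the other m6A demethylase, was at 35.6 and 34.0 TPM in shNS and at 35.6 and 34.9 TPM in shALKBH5 (0.02, adjusted p = 0.80), which after median-of-ratios scaling became -0.18 (adjusted p = 0.031).

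The question put to these libraries is which transcripts differ with ALKBH5 lowered. Of the 13210 genes tested with limma on log2(TPM + 1), 9418 (71.3%) passed an adjusted p of 0.05, 6017 of them higher (45.5% of genes tested) and 3401 lower (25.7%). A count of calls within a gene list is therefore to be read against these shares. Changes of at least 2-fold were rarer: 1468 genes (11.1%) were higher and 772 (5.84%) lower by that much, and 126 and 120 genes by at least 4-fold. Over the 8991 genes averaging no less than 10 TPM, the log2 difference had an SD of 0.13 between the shNS libraries, 0.165 between the shALKBH5 libraries and 0.76 between the group means. The spread within a group was thus small beside the difference between groups.

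The balance of higher and lower calls depends on how the libraries are scaled. As deposited, the median log2 fold change of all genes tested was 0.18, and 63.9% of calls were higher. After median-of-ratios scaling the median was 0.006, with 4633 genes higher and 4705 lower (49.6% higher). Small changes close to 0.18 are therefore not separable from scaling, and list medians below are given on the deposited scale, against 0.18. Low and high genes did not move alike: among 2489 genes averaging 1 to 5 TPM, 40.7% were higher and 12.7% lower, whereas among 252 genes of at least 500 TPM, 30.2% were higher and 48.4% lower. Of 739 long noncoding RNA genes, 51.4% were higher and 10.4% lower, against 45.8% and 27.9% of 11488 protein-coding genes. Ribosomal and other structural RNA, which poly(A) selection should remove, took 6.13% and 4.76% of TPM in shNS and 5.13% and 2.07% in shALKBH5. Without it, 5897 genes were higher and 3691 lower.

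**Figure D1:**
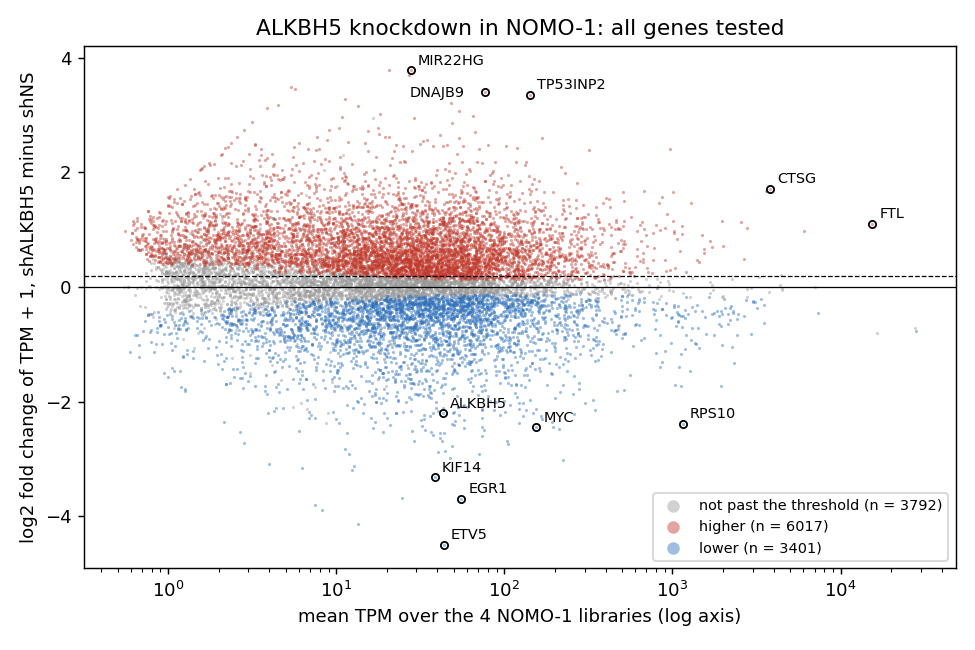
Each point is 1 of the 13210 genes tested, with its mean TPM over the 4 NOMO-1 libraries (log axis) against its log2 fold change (TPM + 1, shALKBH5 minus shNS). Red points passed an adjusted p of 0.05 and were higher, blue points passed and were lower, grey points did not pass, and the dashed line is the median of all genes, 0.18. After median-of-ratios scaling the median is 0.006 and the calls are near balance.

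The largest rises were taken among genes that passed, with groups not overlapping and 50 TPM or more in the higher group mean. They belonged to genes of several kinds. MIR22HG, the host RNA of the microRNA miR-22 (chromosome 17, 1711493 to 1717174), was at 2.75 and 3.03 TPM in shNS and at 53.7 and 51.1 TPM in shALKBH5 (log2 fold change 3.78, SE 0.07, adjusted p = 7.8e-05). SELM, encoding a selenoprotein of the ER, went from 3.02 and 3.07 TPM to 57.4 and 45.6 TPM. DNAJB9, a co-chaperone of the ER, went from 12.02 and 12.84 TPM to 139 and 143 TPM (3.40). The group means of these 3 genes were more than 10 times apart. TP53INP2, an autophagy scaffold, rose by 3.35 on the log2 scale, NUPR1, a stress-inducible chromatin protein, by 3.20, and TM4SF19, a membrane protein, by 2.71. A pair of antimicrobial peptide genes was in the same group: CAMP (cathelicidin) went from 10.31 and 11.02 TPM to 99.8 and 93.8 TPM, and DEFB1 (a beta-defensin) from 15.2 and 12.7 TPM to 116 and 118 TPM. MIR4482 rose by 2.86 and the surface receptor SLAMF7 by 2.94 (not passed in a fit over all 8 libraries of the study). That fit keeps the NOMO-1 fold changes but takes its spread from MOLM-13 as well. There SLAMF7 was at 46.7 and 0.33 TPM in the shALKBH5 libraries. A call lost in that fit is therefore not a measure of spread within NOMO-1 alone. Reads of a microRNA gene that lies within another gene can stem from the host, so the value of MIR4482 is uncertain.

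The largest falls were led by ETV5 (chromosome 3, 186046308 to 186110318), a transcription factor of the ETS family, at 85.7 and 82.2 TPM in shNS and at 1.67 and 4.31 TPM in shALKBH5 (log2 fold change -4.50, SE 0.32, adjusted p = 0.00028). EGR1, an immediate-early transcription factor, went from 102 and 104 TPM to 5.10 and 9.61 TPM (-3.69). The knockdown libraries differed between themselves by a wide margin for both, replicate 2 lying lower. NUCKS1, a chromatin protein (chromosome 1, 205712819 to 205750276), went from 391.5 and 402 TPM to 39.1 and 59.3 TPM (-3.02). KIF14 (-3.32), CASC5 (-2.99), ECT2 (-2.89) and CENPF (-2.74), members of the mitosis list described further on, were also among the 10, as was the kinase gene MELK (-2.78). The cytidine deaminase APOBEC3B fell from 120.4 and 131 TPM to 12.95 and 19.17 TPM, and SUCLG2, a subunit of a citric acid cycle enzyme, from 78.2 and 80.2 TPM to 9.29 and 10.7 TPM.

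**Figure D2:**
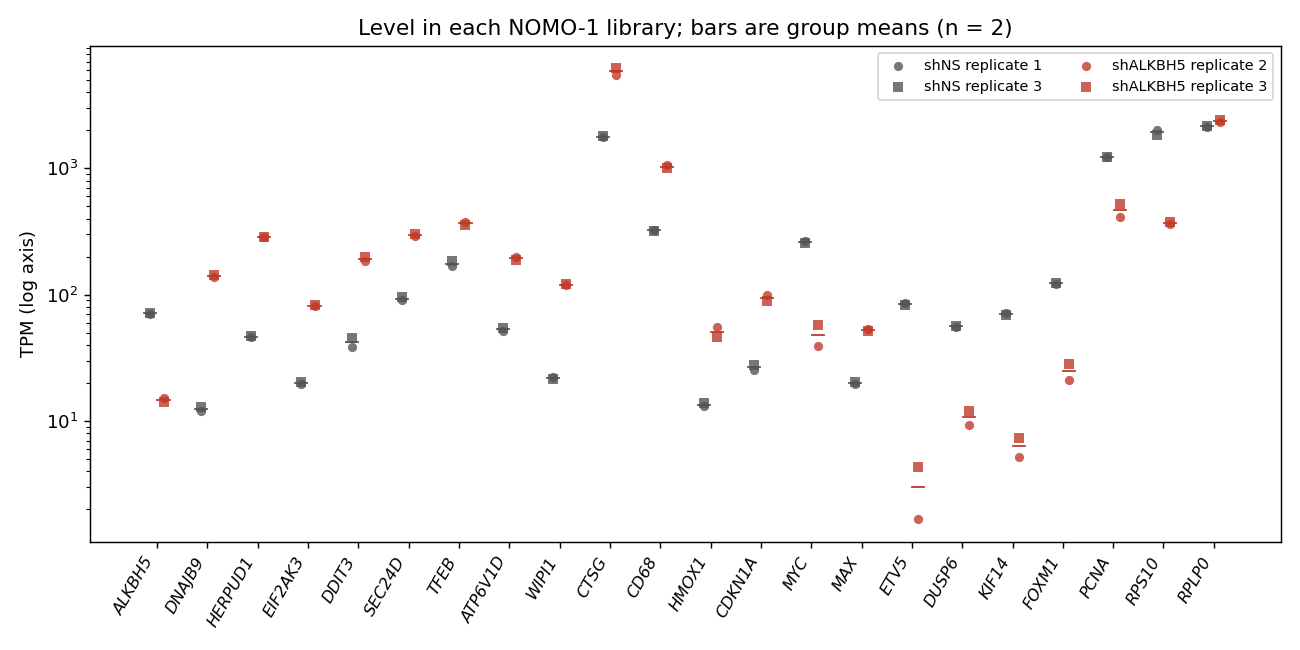
TPM (log axis) of 22 genes in each NOMO-1 library, grey for shNS and red for shALKBH5, with circles and squares for the 2 libraries of a group and a bar for each group mean. The genes were picked with their values known, so the gap between groups seen here does not describe genes at large. RPLP0 has the closest groups, and replicate 2 lies below replicate 3 for ETV5, KIF14, MYC and FOXM1.

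Genes of the unfolded protein response were mostly higher. ER-associated degradation, which removes misfolded proteins from the ER, is served by the IRE1-XBP1 branch. Of the 18 members of this list, all tested, 15 rose and 1 fell, 10 of them rising at least 2-fold, with a median log2 fold change of 1.14 against 0.18 for all genes. The ER co-chaperone DNAJC3, which restrains PERK signalling, was at 92.9 and 90.1 TPM in shNS and at 356 and 374 TPM in shALKBH5 (1.98, SE 0.05, adjusted p = 7.8e-05). HERPUD1, which organises the degradation complex, went from 46.1 and 47.0 TPM to 287 and 287 TPM (2.60). SYVN1, the ubiquitin ligase of the pathway, went from 25.7 and 27.2 TPM to 120.0 and 122 TPM (2.15). For each of these the libraries of a group nearly coincided and the groups were several-fold apart. The degradation lectin OS9 (0.83) and the co-chaperone DNAJB11 (1.05) rose less. The gene of the sensor IRE1, ERN1, rose from 4.34 and 4.15 TPM to 13.4 and 13.8 TPM (1.48, adjusted p = 0.00014). XBP1 mRNA itself was at 298 and 299 TPM in shNS and at 336 and 356 TPM in shALKBH5 (0.21, adjusted p = 0.012), a change about as large as the median of all genes that did not pass after median-of-ratios scaling. Gene-level TPM does not separate its spliced and unspliced forms.

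In the list of ATF6 targets and ER folding enzymes, 12 of 19 members rose and 2 fell (6 rose at least 2-fold; median 0.61). HSPA5, the main ER chaperone BiP, went from 432 and 433 TPM to 1236 and 1344 TPM (log2 fold change 1.57, SE 0.06, adjusted p = 8.8e-05). CRELD2 (33.6 and 32.4 TPM to 129 and 133 TPM) and MANF (222 and 208 TPM to 589 and 656 TPM), both secreted ER stress proteins, rose by 1.96 and 1.53. HSP90B1, the ER form of HSP90, rose by 0.95. Among the disulfide isomerases, P4HB rose by 0.71 and ERP44, which retrieves clients from the Golgi, by 1.31. CALR (calreticulin), the most abundant member, was at 3050 and 3086 TPM in shNS and at 3245 and 3650 TPM in shALKBH5 and did not pass (0.17, adjusted p = 0.13). The oxidases that supply disulfide bonds went opposite ways: ERO1A fell by 0.92 on the log2 scale, from 96.8 and 101 TPM to 48.6 and 55.4 TPM, while ERO1B rose from 6.09 and 6.17 TPM to 15.3 and 19.1 TPM. The ATF6 gene changed by 0.27 (adjusted p = 0.017) and, like XBP1, did not pass after median-of-ratios scaling. Neither gene passed without either shNS library or in the fit over all 8 libraries, whose estimate of spread includes MOLM-13.

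The ER stress element, CCAAT and CCACG separated by 9 bases, is the site through which ATF6 and XBP1 are known to act on ER chaperone genes. It was searched on both strands of RefSeq promoter windows (GRCh38.p14, around a gene's start), which were found for 33 of the 37 members of these 2 lists. It lay in 7 of 18 windows (38.9%) of the ATF6 and folding list and in 1 of 15 (6.67%) of the IRE1 and degradation list, against 0.169% of the 9484 tested genes with a window and 0.0769% of all 35116 windows. The 6 matching members with the highest mean TPM are shown with the matched letters in capitals (CCAAT and CCACG, or ATTGG and CGTGG where the element reads on the other strand). Their windows are CALR chr19:12938359-12938658 (plus strand), HSP90B1 chr12:103930160-103930459 (plus strand), HSPA5 chr9:125241294-125241593 (minus strand), CANX chr5:179698537-179698836 (plus strand), PDIA6 chr2:10812736-10813035 (minus strand) and XBP1 chr22:28800520-28800819 (minus strand).
CALR: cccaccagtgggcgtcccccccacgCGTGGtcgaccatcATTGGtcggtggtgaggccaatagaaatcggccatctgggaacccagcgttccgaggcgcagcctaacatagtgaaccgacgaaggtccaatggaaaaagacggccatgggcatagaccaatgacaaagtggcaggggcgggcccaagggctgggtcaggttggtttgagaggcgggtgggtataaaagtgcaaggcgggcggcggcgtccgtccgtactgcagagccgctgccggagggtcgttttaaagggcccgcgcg
HSP90B1: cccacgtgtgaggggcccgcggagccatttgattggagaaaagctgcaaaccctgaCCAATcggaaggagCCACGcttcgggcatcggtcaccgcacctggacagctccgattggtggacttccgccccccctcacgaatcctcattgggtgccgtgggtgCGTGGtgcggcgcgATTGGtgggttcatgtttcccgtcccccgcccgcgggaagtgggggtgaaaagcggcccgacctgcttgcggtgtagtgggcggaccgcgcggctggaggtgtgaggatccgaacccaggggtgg
HSPA5: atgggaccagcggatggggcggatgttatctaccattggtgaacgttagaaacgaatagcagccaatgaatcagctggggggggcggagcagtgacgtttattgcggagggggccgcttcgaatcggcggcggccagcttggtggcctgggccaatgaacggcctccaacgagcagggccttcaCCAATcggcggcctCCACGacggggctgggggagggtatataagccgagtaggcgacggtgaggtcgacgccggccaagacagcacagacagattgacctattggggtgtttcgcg
CANX: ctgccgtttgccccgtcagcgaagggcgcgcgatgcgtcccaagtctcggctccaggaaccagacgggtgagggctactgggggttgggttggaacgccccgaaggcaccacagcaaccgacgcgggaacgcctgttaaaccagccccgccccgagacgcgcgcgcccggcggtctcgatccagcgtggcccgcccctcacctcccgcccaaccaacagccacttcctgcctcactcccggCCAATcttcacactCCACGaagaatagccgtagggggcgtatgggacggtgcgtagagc
PDIA6: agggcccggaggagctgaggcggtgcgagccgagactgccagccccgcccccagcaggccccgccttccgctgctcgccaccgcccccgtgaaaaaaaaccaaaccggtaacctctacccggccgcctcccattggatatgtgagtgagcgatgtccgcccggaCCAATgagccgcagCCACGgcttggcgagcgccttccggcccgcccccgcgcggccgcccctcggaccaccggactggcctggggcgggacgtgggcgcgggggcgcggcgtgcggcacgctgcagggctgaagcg
XBP1: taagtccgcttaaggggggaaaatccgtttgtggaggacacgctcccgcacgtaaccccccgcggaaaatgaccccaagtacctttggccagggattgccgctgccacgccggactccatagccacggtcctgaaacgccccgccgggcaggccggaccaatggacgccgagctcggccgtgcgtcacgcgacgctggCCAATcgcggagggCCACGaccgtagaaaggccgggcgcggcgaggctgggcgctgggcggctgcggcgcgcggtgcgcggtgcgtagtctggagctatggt

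HSP90B1 has exact matches in both orientations, 2 in 1 window, while the other 5 have a single exact match. Forms of the element that differ by a letter were not searched. Genes with the same letters did not have the same change. HSPA5, with its match 66 bases before the start, rose by 1.57, whereas CALR (0.17), CANX (0.07) and PDIA6 (0.03), an abundant chaperone or isomerase each, did not pass. Over both lists, 5 of 8 members with a match rose and 0 fell (median 0.58), and 19 of 25 without a match rose and 3 fell (median 0.84). The related ER stress element II, ATTGG and CCACG separated by 1 base, lay in 2 of 18 and 1 of 15 windows. The lack of a match says only that these letters are not in the window.

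The PERK branch was divided by role. Of its 26 tested members (27 in the list), 14 rose and 8 fell (median 0.37), against 9 and 5 in the fit over all 8 libraries. The sensor gene EIF2AK3 (PERK) went from 19.5 and 20.4 TPM to 81.2 and 82.7 TPM (log2 fold change 1.99, SE 0.05, adjusted p = 7.8e-05). DDIT3, the stress factor CHOP, went from 38.4 and 45.7 TPM to 186 and 199.5 TPM (2.18), and the factor ATF3 from 7.53 and 7.25 TPM to 23.3 and 20.8 TPM (1.46). ATF4, which is controlled mainly at translation, rose by 0.34 in mRNA. PPP1R15A, which restores translation by dephosphorylating eIF2 alpha, rose by 1.32, and the pseudokinase TRIB3 by 0.66. Of 7 amino acid synthesis genes, in contrast, 2 rose and 4 fell. Among those that fell were the serine synthesis enzymes PSAT1 (192 and 197 TPM to 58.3 and 74.7 TPM, -1.54) and PHGDH (194 and 198 TPM to 90.3 and 111 TPM, -0.96), and those that rose were ALDH18A1 of proline synthesis (1.06) and the folate enzyme MTHFD2 (0.40). The cystine carrier SLC7A11 fell by 0.57. In the fit over all 8 libraries, ATF3, ATF4, MTHFD2, PHGDH and SLC7A11 did not pass. The ATF4 element TGATGCAAT lay in 0 of 22 promoter windows of this list, in 0.137% of windows of tested genes and in 0.236% of all windows. At such shares a count of 0 in 22 windows was likely for any list, so it does not describe these genes.

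Genes that carry new proteins into the ER and on to the Golgi rose in most of their complexes. Of 47 members, all tested, 37 rose and 5 fell (20 rose at least 2-fold; median 0.75). After median-of-ratios scaling 33 rose and 8 fell, and in the fit over all 8 libraries 30 and 2. The COPII coat, which buds vesicles from the ER, moved most: all 9 members rose (8 after median-of-ratios scaling), with a median of 1.39. SEC24D, a cargo adaptor, went from 90.6 and 95.1 TPM to 291 and 301 TPM (1.66, SE 0.05, adjusted p = 7.8e-05), SEC23A from 50.22 and 50.03 TPM to 157 and 155 TPM (1.62), and SEC24A from 23.0 and 24.2 TPM to 74.6 and 74.0 TPM (1.61). The outer coat gene SEC31A rose by 1.39. In the COPI coat, which returns vesicles from the Golgi, 5 of 7 rose and 1 fell, with COPA at 1.21 and COPB1 at 1.02.

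At the ER membrane, 6 of 7 translocon genes rose. SEC61B, a subunit of the channel, went from 200.4 and 211 TPM to 498 and 485 TPM (log2 fold change 1.25). All 4 signal sequence receptor genes rose, SSR2 by 0.81 and SSR4 by 0.75. Of 8 genes of the signal recognition particle and its receptor, 7 rose (5 after median-of-ratios scaling) and 1, SRP9, fell by 0.61 (not passed in the fit over all 8 libraries). Of 5 signal peptidase genes 4 rose, while SPCS1 fell from 242 and 245 TPM to 153 and 152 TPM. The oligosaccharyltransferase, which attaches sugar chains, was mixed: 2 of 7 rose and 2 fell (4 fell after median-of-ratios scaling), RPN1 being at 0.62 and DDOST, which did not pass, at 0.18. None of the 41 promoter windows found for this list held the ER stress element. At its share of 0.169% in windows of tested genes, a count of 0 was likely for any list of this size.

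**Figure D3:**
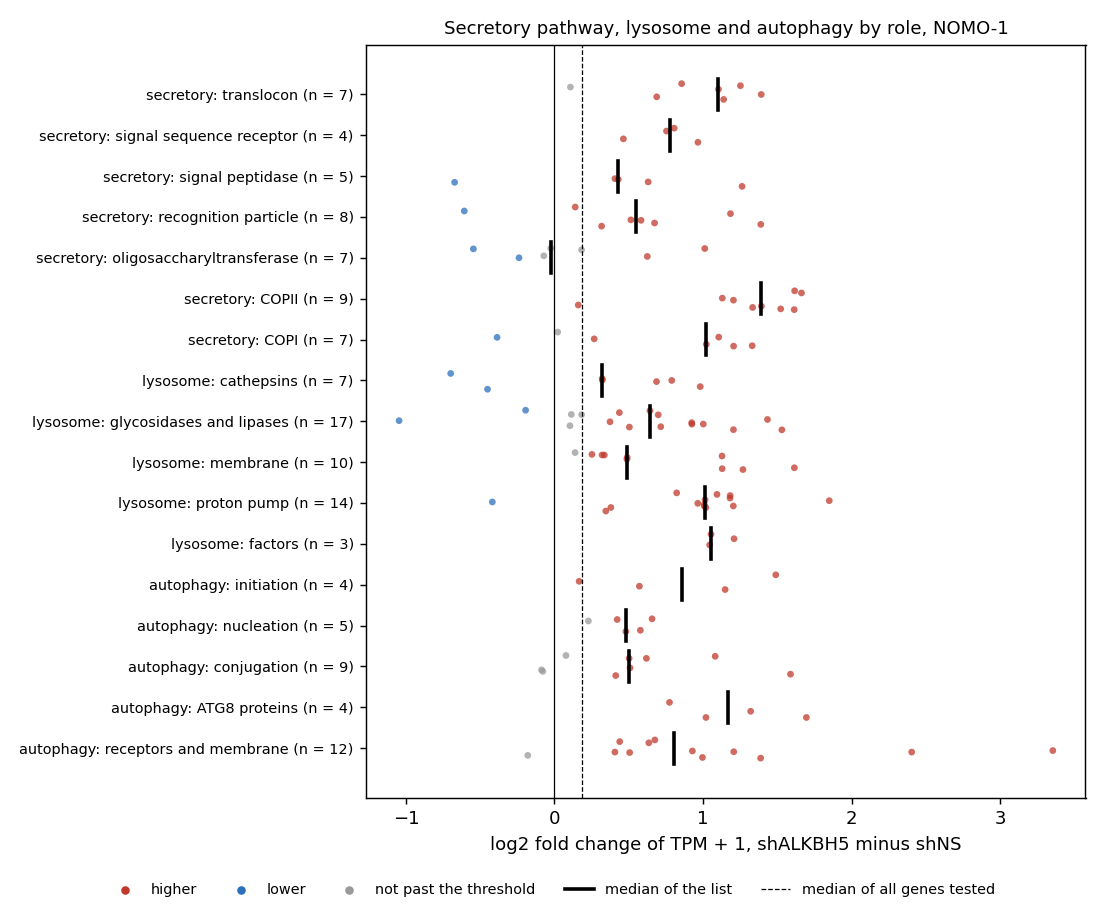
Log2 fold changes (TPM + 1, shALKBH5 minus shNS) of members of the secretory, lysosome and autophagy lists, 1 row per role, with the number tested. Bars are medians of a role and the dashed line is the median of all genes, 0.18; COPII (median 1.39), the proton pump (1.01) and the lysosomal factors (1.05) lie to the right of it and oligosaccharyltransferase (-0.03) to its left.

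Lysosomal genes were higher across enzymes, membrane proteins and the proton pump. 51 of the 55 members were tested, of which 42 rose and 5 fell (20 rose and 1 fell at least 2-fold; median 0.79), against 33 and 2 in the fit over all 8 libraries. CTSD, a cathepsin protease, was at 4028 and 4117 TPM in shNS and at 8122 and 7958 TPM in shALKBH5 (0.98, SE 0.08, adjusted p = 0.00038). PSAP, the precursor of the saposins that help degrade sphingolipids, went from 541 and 542 TPM to 1331 and 1281 TPM (1.27). Of the hydrolases, GLA, an alpha-galactosidase, rose by 1.43 and ASAH1, the acid ceramidase, by 0.92, while GUSB, the beta-glucuronidase, fell by 1.05 on the log2 scale. 13 of 14 tested subunits of the proton pump that acidifies the lysosome rose, with a median of 1.01. ATP6V1D led them, from 52.0 and 54.3 TPM to 200.4 and 188 TPM (1.85), and ATP6V1C1 was the only one tested that fell (-0.42), though not in the fit over all 8 libraries. CD63, a membrane tetraspanin, rose by 1.13.

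All 3 genes of the factors that drive lysosomal genes rose. TFEB was at 168 and 185 TPM in shNS and at 377 and 357 TPM in shALKBH5 (log2 fold change 1.05). TFE3 went from 30.9 and 30.8 TPM to 67.0 and 62.5 TPM (1.04), and MITF from 6.64 and 6.73 TPM to 16.7 and 16.8 TPM (1.21). Their activity is set largely by where the proteins reside, which these data do not show. These factors bind the E-box CACGTG, a site they share with MYC. It lay in 10 of 36 lysosomal promoter windows (27.8%), in 12.8% of windows of tested genes and in 7.26% of all windows.

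Autophagy genes were higher at each step of the pathway. 34 of 36 were tested, 29 rose and 0 fell (11 rose at least 2-fold, median 0.63), and after median-of-ratios scaling 26 rose and 2 fell. WIPI1, which binds the growing membrane, was at 22.3 and 21.5 TPM in shNS and at 119.9 and 121 TPM in shALKBH5 (2.40, SE 0.04, adjusted p = 7.8e-05). ATG101, of the initiating kinase complex, rose by 1.49, and ATG4A, the protease that primes the membrane tags, by 1.59. All 4 tested genes of those tags rose, MAP1LC3B by 1.32 and GABARAP by 0.77. SQSTM1, the cargo receptor p62, went from 191 and 196 TPM to 527 and 489 TPM (1.39). Transcript levels do not show the flux through the pathway.

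Granule and macrophage genes also stood higher, though not alike. Of 18 azurophil granule genes, 14 were tested, 12 rose and 0 fell (8 rose at least 2-fold; median 1.02). CTSG (cathepsin G) went from 1765 and 1789 TPM to 5525 and 6170 TPM (1.72, SE 0.08, adjusted p = 0.00012). ELANE, neutrophil elastase, went from 667 and 705 TPM to 1822 and 1970 TPM (1.47), and SRGN, the proteoglycan that packs granules, from 1685 and 1729 TPM to 5368 and 5544 TPM (1.68). All 5 serine protease genes were higher, including CFD (1.57). RNASE3, an eosinophil granule ribonuclease, rose by 1.55 and CST7, a cysteine protease inhibitor, by 0.91 (adjusted p = 0.056 in the fit over all 8 libraries). MPO stayed below 1 TPM in each library and was not tested.

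Of 47 macrophage and monocyte genes, 33 were tested, and 20 rose and 9 fell (14 rose at least 2-fold; median 0.69). LYZ (lysozyme) went from 463 and 500 TPM to 1532 and 1507 TPM (1.66), and CD68, an endosomal protein of macrophages, from 326 and 320 TPM to 1054 and 1002 TPM (1.67). Of 5 tested immunoglobulin receptor genes 3 rose and 2 fell, with FCGR2A and FCER1G rising by 1.79 and 1.47. SIGLEC1, a sialic acid receptor of resident macrophages, went from 2.01 and 1.82 TPM to 37.8 and 40.9 TPM (3.79), and the complement gene C1QA from 3.80 and 3.86 TPM to 31.3 and 32.4 TPM (2.76). GPNMB, a lysosome-linked glycoprotein, rose by 1.06. Scavenger and lectin receptor genes, SIGLEC1 among them, summed to 366 and 367 TPM in shNS and to 381 and 368 TPM in shALKBH5. Of 3 tested sensor genes in this list 0 rose and 2 fell, and of 8 tested enzyme genes 4 rose and 3 fell. Several defining macrophage receptors remained near 0: MRC1 reached at most 0.04 TPM, CD163 at most 0.34 TPM, and MSR1 was listed at 0 in all 4 libraries. In the fit over all 8 libraries, 14 rose and 2 fell.

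Of 17 listed genes of antigen presentation on MHC class II, 10 were found in the deposited table, among them 2 of 7 chain genes. The others have no value here, so their level is unknown. All 10 were tested, and 5 rose and 2 fell (5 and 4 after median-of-ratios scaling). CD74, the invariant chain, went from 90.2 and 96.1 TPM to 207 and 208 TPM (1.15), and CIITA, the master activator, from 6.37 and 6.76 TPM to 12.3 and 13.1 TPM (0.86). HLA-DRB5 rose by 1.52, a value that is uncertain because its reads can be shared with other DRB genes. RFXAP, a promoter-binding partner of CIITA, fell by 0.64. Myeloid transcription factor genes were mixed, with 10 of 25 higher and 7 lower (10 and 10 after median-of-ratios scaling, 5 and 4 in the fit over all 8 libraries, 9 and 4 without either 1 of the shNS libraries). KLF4 and KLF6 rose by 0.79 and 0.91, LMO2 by 0.85 and MYB by 0.36, while RUNX2 fell by 1.14 and CEBPA by 0.32 on the log2 scale. MYB did not pass without either shNS library, nor KLF6 in the fit over all 8 libraries.

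Iron and metal handling genes rose in most cases: of 25 tested genes (27 in the list), 19 rose and 4 fell (median 0.54), and 8 rose and 0 fell in the fit over all 8 libraries. FTL, the ferritin light chain and among the most abundant transcripts, was at 9816 and 9802 TPM in shNS and at 21969 and 20087 TPM in shALKBH5 (1.10, SE 0.11, adjusted p = 0.00087). FTH1, the heavy chain, rose by 0.81, a value uncertain because of its many processed pseudogenes. HMOX1, which breaks down haem, went from 13.2 and 13.8 TPM to 55.0 and 46.4 TPM (1.83), and ALAS1, which starts haem synthesis, rose by 0.96. All 5 metallothionein genes rose, among them MT1E (51.7 and 46.4 TPM to 137 and 133 TPM) and MT1F (31.5 and 29.1 TPM to 93.8 and 94.4 TPM). These genes are near-identical, so their single values are uncertain. The NRF2 targets were divided, with 5 of 10 higher and 3 lower, TXN (thioredoxin) falling by 0.33 and PRDX1 by 0.42 on the log2 scale. In the fit over all 8 libraries, FTH1, HMOX1, ALAS1, TXN and PRDX1 did not pass, and PRDX1 did not without shNS replicate 3 (adjusted p = 0.052). Of 20 tested selenoprotein genes 10 rose and 7 fell (7 and 9 after median-of-ratios scaling; 8 and 3 in the fit over all 8 libraries and without either 1 of the shNS libraries). SELK of the ER rose by 1.01 and GPX4, which repairs lipid peroxides, fell from 457 and 452 TPM to 246 and 251 TPM.

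Many target genes of the MAPK/ERK pathway were lower, among them its ETS factors and feedback inhibitors. Of 24 tested genes (28 in the list), 14 fell and 7 rose (10 fell at least 2-fold; median -0.54). ETV4 went with ETV5, from 16.5 and 16.3 TPM to 0.09 and 0.27 TPM (-3.88, SE 0.12, adjusted p = 8.1e-05). Of 4 ERK phosphatase genes 2 fell and 2 rose (2 and 0 in the fit over all 8 libraries). DUSP6 went from 55.5 and 56.7 TPM to 9.34 and 12.03 TPM (-2.30), and DUSP4 from 21.2 and 19.9 TPM to 2.33 and 3.05 TPM (-2.55). DUSP1 and DUSP5 were the 2 that rose. Of 5 tested feedback inhibitors 4 fell, including SPRED2 (52.9 and 51.1 TPM to 12.2 and 14.2 TPM) and SPRY2 (16.5 and 16.2 TPM to 2.46 and 3.24 TPM). The immediate-early factors were split: IER2 fell by 1.54 and JUNB by 0.53 on the log2 scale, while JUN rose from 61.1 and 62.0 TPM to 154 and 134 TPM. In the fit over all 8 libraries, 10 fell and 1 rose, and JUN and JUNB did not pass.

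MYC, a growth-promoting transcription factor, was at 267 and 258 TPM in shNS and at 39.1 and 57.2 TPM in shALKBH5 (log2 fold change -2.44, SE 0.18, adjusted p = 0.00029). Its binding partner MAX went the other way, from 19.5 and 20.5 TPM to 53.9 and 51.6 TPM (1.36), as did MLX, the partner of the related MLXIP (1.01 and 1.05). Of the 6 antagonists that compete with MYC for MAX, 3 rose, namely MXD4 (5.71 and 6.70 TPM to 22.9 and 22.4 TPM), MXD1 (12.2 and 10.3 TPM to 24.9 and 23.4 TPM) and MNT (13.9 and 11.7 TPM to 28.1 and 26.8 TPM). MXI1 was the antagonist that fell (-0.87). Over the network of 13 tested genes (15 in the list) 6 rose and 3 fell (6 and 5 after median-of-ratios scaling), and each of the 6 rose at least 2-fold. In the fit over all 8 libraries, MXD1 did not pass.

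Genes of mitosis fell nearly without exception. 51 of 52 were tested and 49 fell, 46 of them at least 2-fold, with a median of -2.07 against 0.18 for all genes. 49 fell as well in each fit without 1 library. TPX2, which nucleates spindle microtubules, was at 550 and 572 TPM in shNS and at 107 and 148 TPM in shALKBH5 (-2.15, SE 0.15, adjusted p = 0.00028). PTTG1 (securin) went from 274 and 280 TPM to 49.4 and 62.2 TPM (-2.30). All 16 tested spindle and kinesin genes, all 10 kinetochore genes, all 4 checkpoint genes, among them MAD2L1 (-1.57), and all 5 kinase genes fell. The motor gene KIF18B fell by 2.41 and the ubiquitin-conjugating enzyme UBE2S by 1.47 on the log2 scale. The factors that drive these genes were lower too: FOXM1 went from 122 and 125 TPM to 21.3 and 28.3 TPM (-2.28), and MYBL2 from 319 and 337 TPM to 50.1 and 71.3 TPM (-2.44). The exceptions belong to the complex that ends mitosis: CDC27, a core subunit, rose by 0.44 (not passed in the fit over all 8 libraries), and FZR1, its activator in G1, was at 23.7 and 23.5 TPM in shNS and at 24.5 and 24.4 TPM in shALKBH5 (adjusted p = 0.44).

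The cell cycle homology region, TTTGAA or TTCGAA, is the promoter element through which the DREAM and MYBL2-FOXM1 complexes are known to time mitotic genes. Either form on either strand lay in 30 of 44 mitosis windows (68.2%), in 28.3% of the 572 windows of genes lower by at least 2-fold, in 14.9% of the 1006 of genes higher by at least 2-fold, in 15.7% of windows of tested genes and in 16.4% of all windows. The 3 matching members with the highest mean TPM are shown with matches in capitals (TTCAAA is TTTGAA on the other strand): CCNB2 (cyclin B2) chr15:59104896-59105195 (plus strand), PRC1, a midzone protein, chr15:90994486-90994785 (minus strand), and CDC20, the activator of the anaphase complex, chr1:43358731-43359030 (plus strand).
CCNB2: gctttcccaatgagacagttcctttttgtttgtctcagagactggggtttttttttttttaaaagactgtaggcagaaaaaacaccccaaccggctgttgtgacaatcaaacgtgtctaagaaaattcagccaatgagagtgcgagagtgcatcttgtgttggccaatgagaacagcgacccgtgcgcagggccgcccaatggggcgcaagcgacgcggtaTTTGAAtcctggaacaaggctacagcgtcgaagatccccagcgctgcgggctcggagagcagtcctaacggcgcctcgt
PRC1: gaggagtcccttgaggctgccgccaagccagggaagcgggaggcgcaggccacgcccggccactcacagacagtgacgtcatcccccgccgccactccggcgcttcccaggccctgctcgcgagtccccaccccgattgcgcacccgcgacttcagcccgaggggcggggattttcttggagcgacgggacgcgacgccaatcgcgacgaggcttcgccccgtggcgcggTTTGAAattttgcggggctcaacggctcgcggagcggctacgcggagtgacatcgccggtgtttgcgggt
CDC20: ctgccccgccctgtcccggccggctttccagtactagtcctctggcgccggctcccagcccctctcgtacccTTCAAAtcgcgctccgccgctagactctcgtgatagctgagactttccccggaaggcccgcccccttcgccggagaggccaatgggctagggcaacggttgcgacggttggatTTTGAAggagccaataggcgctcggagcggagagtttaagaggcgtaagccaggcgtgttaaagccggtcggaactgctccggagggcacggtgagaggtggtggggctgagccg

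CCNB2 went from 247 and 256 TPM to 50.1 and 63.5 TPM (log2 fold change -2.14), PRC1 from 221 and 224 TPM to 67.4 and 99.1 TPM (-1.43) and CDC20 from 216 and 223 TPM to 41.9 and 56.9 TPM (-2.15). In each, replicate 2 lay below replicate 3. Mitosis genes with and without the element had close medians: 29 of 30 with it fell (median -2.0), and 13 of 14 without it fell (median -2.10).

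All 47 DNA replication genes fell (31 at least 2-fold; median -1.26), 40 of them also in the fit over all 8 libraries. The replicative helicase and its loading partners fell most, with a median of -1.82: MCM6 went from 533 and 534 TPM to 119 and 154 TPM (-1.97), MCM5 from 131 and 132 TPM to 29.8 and 34.9 TPM (-1.99), and GINS2 fell by 1.66. PCNA, the sliding clamp, went from 1221 and 1231 TPM to 412 and 522 TPM (-1.40), and RFC3 of its loader fell by 1.5. Among nucleotide synthesis genes, TYMS fell by 2.03 and RRM2 by 0.78 on the log2 scale, the latter not passing in the fit over all 8 libraries. Licensing genes fell least, with a median of -0.54, although CDT1 fell by 1.46. E2F sites (TTTGGCGC, TTTCCCGC, TTTCGCGC or TTTGCCGC, on either strand) lay in 21 of 40 windows of this list (52.5%), in 3 of 44 mitosis windows (6.82%), in 6.62% of windows of tested genes and in 3.31% of all windows. Among genes lower by at least 2-fold, 13.3% of windows held one.

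The 2 knockdown libraries differed in how far these genes fell. The median of mitosis genes against the shNS mean was -2.26 in replicate 2 and -1.85 in replicate 3, and 1 of 51 members was lower in replicate 3. For DNA replication the medians were -1.36 and -1.18, with 1 of 47 lower in replicate 3. ALKBH5 itself was 15.1 TPM in replicate 2 and 14.2 TPM in replicate 3, and the share of structural RNA was 5.13% and 2.07%. The part of that share in the difference was not tested.

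Control of the G1 phase was mixed by role. Of 27 tested genes (30 in the list) 17 fell and 6 rose (median -0.68), against 10 and 4 in the fit over all 8 libraries. The inhibitor CDKN1A (p21) went from 25.5 and 27.8 TPM to 99.5 and 88.4 TPM (1.78, SE 0.08, adjusted p = 0.0001), and CDKN1B (p27) from 153 and 156 TPM to 277 and 286 TPM (0.86). CDKN2A, another inhibitor gene, fell from 87.6 and 96.9 TPM to 33.1 and 40.9 TPM (-1.30). Of the cyclins, CCND2 (-1.93) and CCNE1 (-1.29) fell, while CCND3, the most abundant, rose from 1206 and 1176 TPM to 1920 and 1868 TPM (0.67). E2F1 fell by 0.91 (not passed in the fit over all 8 libraries) and TFDP1, the partner of E2F proteins, by 0.82 on the log2 scale. Targets of p53 were not uniform: 14 of 27 rose and 8 fell (9 and 10 after median-of-ratios scaling; 9 and 4 in the fit over all 8 libraries). Beside CDKN1A, ZMAT3 (1.79) and RRM2B (1.30) rose, whereas DDB2 fell by 1.68 and MDM2 by 0.55.

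Genes of ribosome assembly and ribosomal proteins were mostly lower. Of 48 tested assembly genes (50 in the list) 33 fell and 9 rose (median -0.46), against 28 and 5 in the fit over all 8 libraries. TCOF1, which supports transcription of ribosomal RNA, went from 63.3 and 61.9 TPM to 12.4 and 13.4 TPM (-2.19, SE 0.06, adjusted p = 7.8e-05). The abundant nucleolar genes NCL (1291 and 1305 TPM to 589.9 and 734 TPM) and NPM1 (2285 and 2345 TPM to 1373 and 1573 TPM) fell by 0.98 and 0.66, and FBL, the methyltransferase of ribosomal RNA, by 0.94. Assembly factors of the small subunit were evenly split, 6 rising and 5 falling (4 and 6 after median-of-ratios scaling). GNL2 of the large subunit rose by 0.81. The E-box CACGTG lay in 17 of 39 windows of this list (43.6%) against 12.8% of windows of tested genes.

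Of 74 tested ribosomal protein genes (76 in the list), 59 fell and 0 rose (9 fell at least 2-fold; median -0.44), 72 fell and 0 rose after median-of-ratios scaling, 37 fell in the fit over all 8 libraries, and 36 fell without shNS replicate 3. The sizes varied widely. RPS10 was at 2023 and 1851 TPM in shNS and at 362 and 377 TPM in shALKBH5 (-2.38), and RPL5 went from 1695 and 1742 TPM to 461 and 582 TPM (-1.73). RPL13A, RPL10A and RPS25 fell by 1.12, 1.06 and 1.00, and RPL7 by 0.64. RPLP0, of the ribosomal stalk, was at 2136 and 2178 TPM in shNS and at 2310 and 2427 TPM in shALKBH5 (0.13, adjusted p = 0.11). Many of these genes have processed pseudogenes, and their single values are uncertain. The medians against the shNS mean were -0.49 in replicate 2 and -0.38 in replicate 3.

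Translation factor genes fell more often than they rose, 23 against 7 of 49 (36 against 6 after median-of-ratios scaling; 15 against 5 in the fit over all 8 libraries). EIF2S2, a subunit of the initiator eIF2, went from 236 and 243 TPM to 80.1 and 91.6 TPM (-1.47), while EIF1, which guards start codon choice, rose from 523 and 533 TPM to 1014 and 1005 TPM (0.93), and EIF4A3 by 0.83. Of 23 aminoacyl-tRNA synthetase genes 8 rose and 9 fell (5 and 13 after median-of-ratios scaling; 4 and 6 in the fit over all 8 libraries; 5 and 7 without shNS replicate 1; 5 and 6 without shNS replicate 3). WARS rose by 1.29 and SARS by 0.78, and KARS fell by 0.95.

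**Figure D4:**
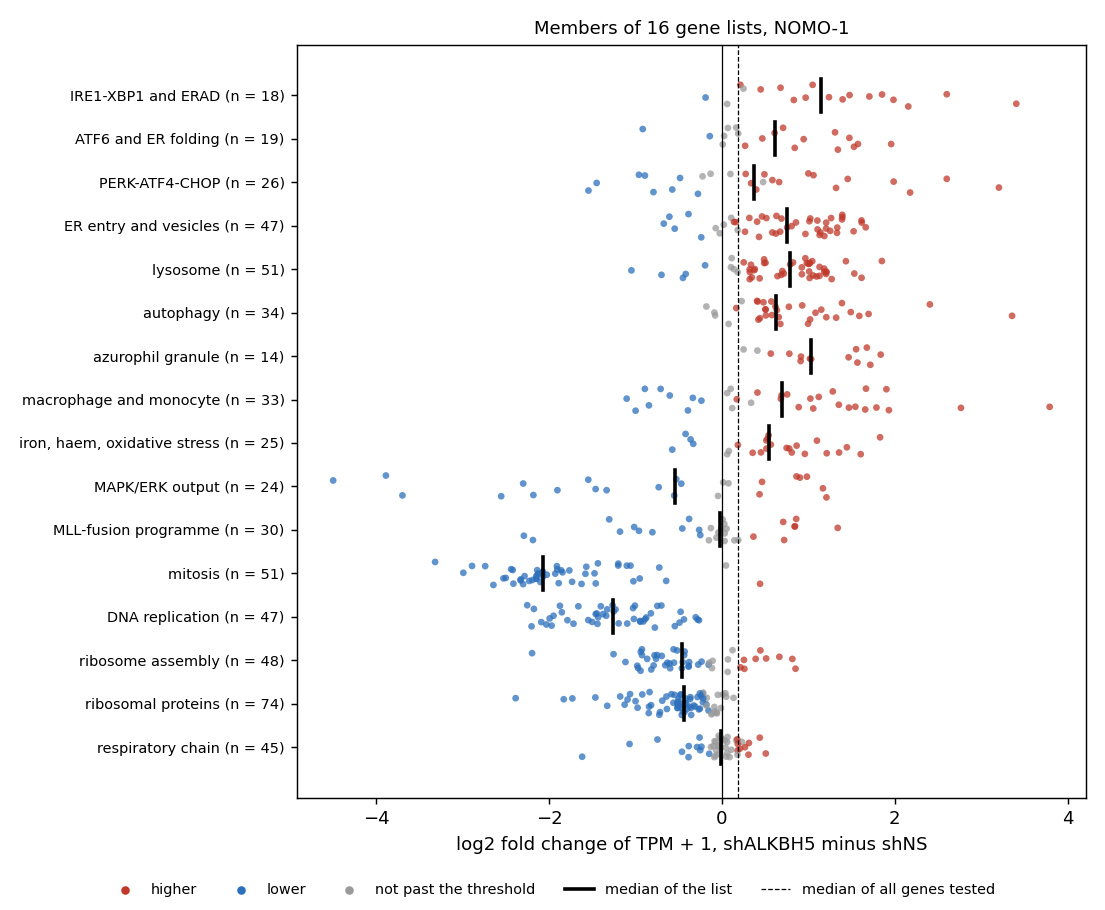
Log2 fold changes (TPM + 1, shALKBH5 minus shNS) of the tested members of 16 lists, 1 point per gene, with bars for list medians and a dashed line for the median of all genes, 0.18. Medians run from 1.14 (IRE1-XBP1 and degradation) to -2.07 (mitosis); after median-of-ratios scaling the respiratory chain, near 0 here, has 30 lower and 3 higher members.

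Metabolic lists showed smaller changes. In the nuclear-encoded respiratory chain 9 of 45 genes rose and 11 fell, a balance that became 3 and 30 after median-of-ratios scaling. The counts were 1 and 6 in the fit over all 8 libraries, and 5 and 5 without shNS replicate 1 as well as without shNS replicate 3. SDHB of complex II stood out, falling from 209 and 214 TPM to 66.0 and 70.7 TPM (-1.62, SE 0.05, adjusted p = 8.1e-05), with ATP5C1 of the ATP synthase at -1.07. In glycolysis 10 of 24 tested genes rose and 11 fell (7 and 13 after median-of-ratios scaling; 6 and 8 in the fit over all 8 libraries). Abundant enzymes were among the lower ones, with LDHB at -0.84, PKM at -0.55 (not passed in the fit over all 8 libraries) and ENO1 at -0.46. The glucose carrier gene SLC2A1 fell by 1.32 on the log2 scale. Cholesterol genes counted 16 higher and 8 lower of 28 tested (10 and 9 after median-of-ratios scaling; 11 and 5 in the fit over all 8 libraries), with MVD (1.00), IDI1 (0.89) and CYP51A1 (0.81) higher and EBP (-0.67) lower.

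Survival genes of the BCL2 family diverged. BCL2, which restrains apoptosis, was at 13.5 and 12.5 TPM in shNS and at 1.59 and 2.17 TPM in shALKBH5 (log2 fold change -2.29, SE 0.13, adjusted p = 0.00016). BCL2A1, with a like function and a far higher level, went from 324 and 327 TPM to 704 and 663 TPM (1.07), and BCL2L1 rose by 0.78. The pro-apoptotic BMF rose by 1.35. Over 32 apoptosis genes 15 rose and 12 fell, and 6 rose and 7 fell in the fit over all 8 libraries, in which BCL2A1 and BMF did not pass. In the MLL-fusion programme 7 of 30 tested genes rose and 11 fell (7 and 19 after median-of-ratios scaling). Beside BCL2, HMGB3 (82.2 and 83.0 TPM to 15.6 and 19.3 TPM) and PSIP1, a chromatin tether of MLL (99.9 and 109.5 TPM to 41.9 and 49.8 TPM), fell. HOXA9, a homeobox factor central to these leukaemias, was at 150.1 and 157 TPM in shNS and at 148 and 166 TPM in shALKBH5, with overlapping groups (0.03), and was lower after median-of-ratios scaling (-0.17, adjusted p = 0.046).

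Among the machinery of m6A, 5 of 27 tested genes rose and 14, ALKBH5 included, fell (2 and 21 after median-of-ratios scaling; 1 and 9 in the fit over all 8 libraries). Without shNS replicate 1 the counts were 3 and 9, and without shNS replicate 3 they were 2 and 9. METTL3 was at 42.2 and 45.5 TPM in shNS and at 33.7 and 34.5 TPM in shALKBH5 (-0.35, adjusted p = 0.0039), and did not pass in the fit over all 8 libraries (adjusted p = 0.059). Among the readers, IGF2BP2 fell from 30.4 and 34.1 TPM to 6.04 and 6.43 TPM (-2.20), HNRNPA2B1 from 1081 and 1105 TPM to 445 and 542 TPM (-1.15) and HNRNPC by 0.94 on the log2 scale, while YTHDF3 rose from 56.1 and 52.6 TPM to 124 and 112 TPM (1.10). Of 6 genes linked elsewhere with ALKBH5, as targets or otherwise, 4 were tested. TACC3 (-1.10) and FOXM1 and MYC, given above, fell, and KDM4C rose by 1.24. Whether any of them is a direct target in these cells was not tested.

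No m6A was measured, but transcripts were compared by sequence. In the longest GENCODE release 29 transcript, the motif GGACT, the commonest setting of m6A, occurred at a median of 0.921 per kilobase over the 12359 tested genes that matched. The medians were 0.968 for genes higher by at least 2-fold, 0.86 for genes lower by at least 2-fold and 0.902 for genes not called. Median GC content was 50% in the higher genes, 45.1% in the lower genes and 48.6% in all, and median lengths were 3190, 3297 and 3401 bases.

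Of chemokine and cytokine genes 13 of 23 tested rose and 6 fell (3 and 2 in the fit over all 8 libraries). CCL2, which attracts monocytes, went from 45.9 and 47.7 TPM to 2.51 and 2.97 TPM (-3.68, SE 0.09, adjusted p = 7.8e-05), IL32 fell by 1.07, and CCL3 rose from 5.81 and 6.48 TPM to 23.3 and 21.4 TPM (1.71). Interferon-stimulated genes had 13 of 33 higher and 8 lower (10 and 11 after median-of-ratios scaling, 1 and 1 in the fit over all 8 libraries). The spread of the latter fit includes MOLM-13, whose shALKBH5 libraries differed for these genes. STAT2 rose from 33.6 and 33.5 TPM to 134 and 137 TPM (1.98), and OAS3 fell by 1.23. IL32, CCL3 and OAS3 did not pass in the fit over all 8 libraries. Among long noncoding RNAs and snoRNA hosts, NORAD (290.2 and 289 TPM to 637 and 642 TPM) and MALAT1 (596 and 591 TPM to 1241 and 1181 TPM) rose by 1.14 and 1.03, and the list as a whole counted 12 higher and 12 lower of 27 (9 and 13 after median-of-ratios scaling, 10 and 6 in the fit over all 8 libraries, 10 and 7 without shNS replicate 3). 10 of 12 tested replication-dependent histone genes rose and 2 fell (median 1.15), for example HIST2H2BE (2.04 and 1.76 TPM to 25.96 and 23.89 TPM, 3.16), while HIST1H1E fell by 1.82. Most mRNAs of this class have no poly(A) tail and their copies are alike. The part of poly(A) selection in these values was not tested.

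Whether the knockdown effect in NOMO-1 differed from that in MOLM-13 was tested as a difference of effects over all 8 libraries (14302 genes). 4946 genes (34.6%) passed, 29.7% with a positive and 4.9% with a negative difference (NOMO-1 minus MOLM-13), around a median of 0.42. After median-of-ratios scaling the median was -0.02, and 51.4% of calls were positive against 85.8% as deposited. Structural RNA took 2.30% and 1.75% of TPM in MOLM-13 shNS and 4.05% and 7.87% in MOLM-13 shALKBH5. In NOMO-1 the groups overlapped, with 6.13% and 4.76% in shNS and 5.13% and 2.07% in shALKBH5. Of 15 tested structural RNA genes the difference was negative for 11 and positive for 0 (median -3.0). With structural RNA left out, 4041 differences were positive and 898 negative, around a median of 0.35. The 2 MOLM-13 shALKBH5 libraries differed from each other for some lists. Without replicate 1 of that group the median difference of interferon-stimulated genes was 1.02, and without replicate 3 it was -2.24. For IRE1 and degradation genes the medians were 1.34 and 1.22. The part of this disagreement in the number of genes that passed was not tested. The count of genes that passed rests on single libraries. It was 1586 without MOLM-13 shNS replicate 1, 9638 without MOLM-13 shALKBH5 replicate 1 and 7819 without MOLM-13 shALKBH5 replicate 3, lay between 1786 and 2090 without any 1 of the others, and was 0 with the replicate number as a block.

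ER and secretory genes were among those that passed. DNAJB9 was at 8.19 and 7.64 TPM in MOLM-13 shNS and at 11.1 and 7.85 TPM in MOLM-13 shALKBH5, with overlapping groups, and its difference was 3.19 (SE 0.22, adjusted p = 0.0017). The difference was positive for 16 and negative for 0 of 18 IRE1 and degradation genes (12 and 0 after median-of-ratios scaling). It was positive for 38 and negative for 0 of 47 ER entry and vesicle genes (33 and 4 after scaling), whose median log2 fold change in MOLM-13 was -0.29. For mitosis, 33 of 51 were positive and 2 negative (26 and 4 after scaling), with MOLM-13 at a median of -3.14. Ribosomal proteins had 0 positive and 41 negative of 74 (0 and 50 after scaling), with a MOLM-13 median of 0.26. In the lysosome list the balance turned with the scaling: 12 of 53 were positive and 3 negative as deposited, and 6 positive and 15 negative after it, with a MOLM-13 median of 0.47. With structural RNA left out, the counts were 16 and 0 for IRE1 and degradation, 37 and 0 for ER entry and vesicles, 33 and 2 for mitosis, 0 and 45 for ribosomal proteins and 11 and 6 for the lysosome. These counts too rest on single libraries. Without MOLM-13 shNS replicate 1 they were 11 and 0, 21 and 0, 14 and 0, 0 and 5, and 2 and 2 in that order, and without MOLM-13 shALKBH5 replicate 1 they were 18 and 0, 43 and 0, 45 and 2, 0 and 67, and 36 and 8. Without MOLM-13 shALKBH5 replicate 3 the lysosome list had 20 positive and 18 negative. Without any 1 of the remaining 5 libraries, counts fell as well, to 12 positive for IRE1 and degradation, 21 to 27 for ER entry and vesicles, 14 to 31 for mitosis and 2 to 3 for the lysosome, and to 5 to 9 negative for ribosomal proteins.

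**Figure D5:**
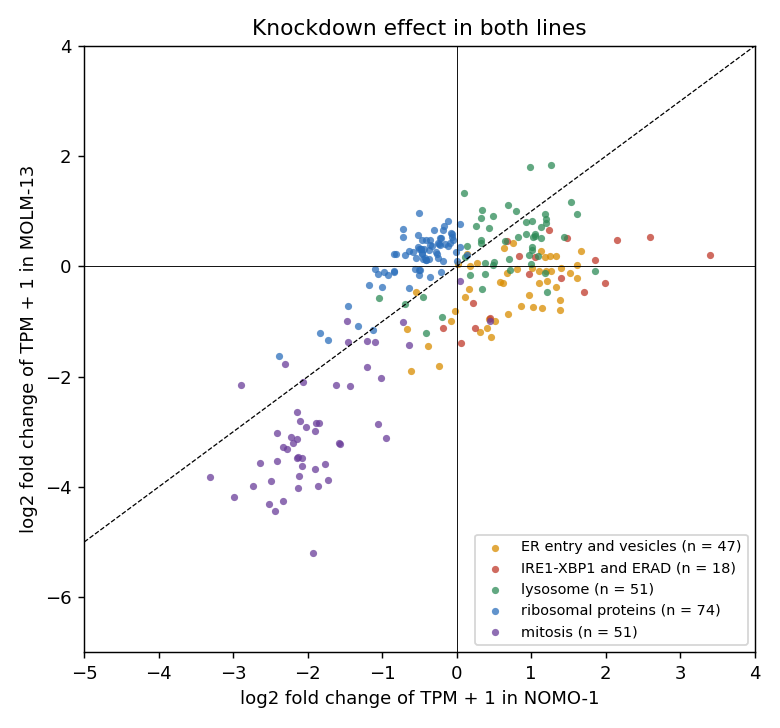
Log2 fold change (TPM + 1) after knockdown in NOMO-1 (horizontal axis) and in MOLM-13 (vertical axis) for members of 5 lists, 1 point per gene; on the dashed line both effects are equal. Most secretory and IRE1 genes lie below the line (MOLM-13 medians -0.29 and -0.01), most ribosomal proteins above it (0.26) and mitosis genes mostly below it (-3.14).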

How the data were processed

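The authors deposited 1 table of TPM for the 8 libraries, and 0 columns were left over. Column names give the line, NS or E, and a replicate number. NS was read as shNS and E as shALKBH5, the only other hairpin that the sample titles name for a line. Alignment and quantification used STAR and RSEM with GRCh38, per the submitters' processing notes. Tool versions and gene annotation were not given in the sources used here. The labels' protocols name a stranded kit and poly(A) selection. They disagree on puromycin selection (4 days or 1 week) and mention a virus against FTO and drug treatments that no sample label lists.

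Genes reaching 1 TPM in 2 or more of the 4 NOMO-1 libraries were fitted alone in limma 3.58.1 (R 4.3.3) on log2(TPM + 1), with a mean per group, 2 residual and 2.88 prior degrees of freedom and a trend on the mean. Tests were two-sided, with p-values adjusted by Benjamini-Hochberg across the 13210 genes and a threshold of 0.05. Fold changes of low genes are understated. Without adjustment 9780 genes had p below 0.05. Reads cannot be recovered from TPM, so no count model was run and no interval is given. RSEM divides reads between like copies, so values of multi-copy genes are uncertain. The difference between lines was fitted over all 8 libraries (4 residual degrees of freedom). Same-numbered libraries did not deviate together (correlations -0.08 to 0.13 over 8804 genes), so no block was used.

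The members and gene lists were chosen with earlier results of these data known, and lists are described by counts and medians, without a test. Genes named are ALKBH5; the 10 largest changes in each direction with a group mean of at least 50 TPM; in each list the 4 most abundant members and the 4 with the smallest p, not all of which are printed; sensors and transcription factors; and for the difference the 5 smallest p in each direction. The 10 largest changes in each direction were taken only among genes that passed and whose groups did not overlap. Other members named were chosen after their values were seen. Alternatives were other pseudocounts, filters, scalings, moderation settings, all 8 libraries together, each library left out and, added after seeing the data, structural RNA left out, also from the difference between lines. Gene positions are from GENCODE release 29. Promoters are from RefSeq (GRCh38.p14); windows were found for 9484 of the genes tested, and the ATF4 element was searched as TGATGCAAT. Values of 2 list members are left out here.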

Additional observations from a re-analysis of the deposited data

Results flagged for a closer look

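In 10 genes, each called in NOMO-1 and with a NOMO-1 group mean of at least 50 TPM, the knockdown effect differed from that in MOLM-13 with the smallest p-values in each direction (limma, NOMO-1 minus MOLM-13, n = 2 per group). With a positive difference, MFAP4, an extracellular matrix protein, rose in NOMO-1 from 23.9 and 25.5 TPM to 54.9 and 48.5 TPM and stood in MOLM-13 at 176 and 188 TPM in shNS against 20.1 and 22.5 TPM in shALKBH5 (difference 4.07, SE 0.16, adjusted p = 0.0012). SELM was listed at 0 to 0.13 TPM in MOLM-13 (difference 3.60), and MIR4482 was listed at 0 in all 4 MOLM-13 libraries (2.86), which leaves the NOMO-1 change alone in each difference. SLC38A1, a glutamine carrier, went from 89.1 and 88.8 TPM to 67.8 and 77.0 TPM in NOMO-1 and went from 40.0 and 39.9 TPM to 3.01 and 2.58 TPM in MOLM-13 (3.14). CDC25A, a phosphatase that opens the cell cycle, likewise changed from 59.1 and 56.3 TPM to 44.5 and 47.4 TPM in NOMO-1 and from 15.45 and 15.97 TPM to 1.29 and 1.36 TPM in MOLM-13 (2.52).

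With a negative difference, HMGA1, a chromatin protein, fell in NOMO-1 from 721 and 725 TPM to 181 and 233 TPM, against 472 and 504 TPM in shNS and 541 and 569 TPM in shALKBH5 in MOLM-13 (-2.0). ADA, adenosine deaminase, was opposite in sign as well, with 169 and 180.2 TPM falling to 93.3 and 100.2 TPM in NOMO-1 and 71.3 and 73.7 TPM against 94.8 and 87.2 TPM in MOLM-13 (-1.17). GTSF1 fell in NOMO-1 from 172 and 163.5 TPM to 54.9 and 46.9 TPM (-1.705) and was at most 0.46 TPM in MOLM-13. Its difference (-1.90) is thus mostly the NOMO-1 change. GAL, the neuropeptide galanin, was lower in both lines, from 59.5 and 56.0 TPM to 8.67 and 10.2 TPM in NOMO-1 (-1.47), and ARL2, a small GTPase, was higher in both, from 22.4 and 25.0 TPM to 96.5 and 97.3 TPM in MOLM-13 (-1.25). Within NOMO-1, CDC25A did not pass without shNS replicate 1 (adjusted p = 0.054), and SLC38A1 did not without shNS replicate 1 (0.099), without shNS replicate 3 (0.094) or in the fit over all 8 libraries (0.067). The 10 genes were picked for their small p-values in the fit over the same 8 libraries. Fits without 1 library share the rest of the data and cannot serve as independent support for them. With the replicate number as a block in limma, none of the 10 differences passed (adjusted p = 0.057 to 0.06).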

How the results depend on the processing

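ALKBH5 was lower under every alternative run (log2 fold change -1.96 to -2.40). Genes higher numbered 4843 to 5485 and genes lower 2392 to 3650 without 1 of the NOMO-1 libraries. With the spread pooled over all 8 libraries 4097 were higher and 2145 lower, the latter the only NOMO-1 count beyond 1.5 times the reported one. The difference between lines numbered 1586 to 9638 genes without 1 library, and 0 with the replicate number as a block, where 5250 genes had an unadjusted p below 0.05 and 2 residual degrees of freedom remained. No paired analysis was possible because the shNS and shALKBH5 groups of NOMO-1 share only replicate number 3.

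Of 228 NOMO-1 genes named, 217 passed. 182 of these kept direction and call in every alternative in which they were tested. 35 lost the call in at least 1 (33 of them with all 8 libraries), and 0 turned. A gene that a filter removed was not tested in that setting. Many named genes were chosen for a small p or a large change in these same data, or after their values were seen. Their counts therefore do not describe the called genes at large. Apart from ALKBH5, single genes were not followed in the fit without structural RNA. Genes that had not passed turned in sign after median-of-ratios scaling: CALR (-0.033), CANX (-0.128), DDOST (-0.015), FTO (-0.177), FZR1 (-0.143), HOXA9 (-0.165), PDIA6 (-0.172) and RPLP0 (-0.064). After quantile scaling FTO (-0.101), FZR1 (-0.074), HOXA9 (-0.047) and PDIA6 (-0.051) did. Without 1 library HOXA9 ranged from -0.051 to 0.115, FTO from -0.017 to 0.049, CANX from -0.037 to 0.176 and PDIA6 from -0.076 to 0.127. The cause was not tested. Depth is unknown, so changes of genes near 1 TPM cannot be given a counting limit.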
